A study of Mus musculus with 6 samples.

Results

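The genes described here encode the parts of the sarcomere, the contractile unit of heart muscle, other than its myosins, its troponins and myosin-binding protein C. They are the muscle actins, the tropomyosins, the proteins that set and cap thin filament length, the Z-disc, titin and the M-band, and the chaperones that help to assemble them. The list of 31 genes was given by name, and every probe set whose annotation named 1 of them alone was taken. This gave 72 of the 45037 probe sets other than controls on the array, for 30 of the 31 genes, out of 18193 genes that a probe set names alone. Xirp2 had no probe set of its own here. By the annotation, no probe set named a list member together with another gene.

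Tissue came from the outflow tract of CD1 mouse hearts at embryonic day 10.5, cut into a superior and an inferior part, with no mutation or treatment named in either. The sample labels say that regions of 6 littermate embryos were combined, while the design text speaks of 7 pooled dissections of each domain, and each pool was hybridised to 1 Affymetrix mouse genome expression array. Pools 1, 6 and 7 of both parts gave 6 arrays, 3 per region. The labels do not say whether different pools are different litters, so the spread that the p-values rest on may be technical. In a fit without a term for the pool number, this is the spread between pools of the same region. In a fit with that term, it is the spread of the superior minus inferior difference over the 3 pool numbers. In such pooled tissue, fewer muscle cells and less RNA per muscle cell cannot be told apart.

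In a sarcomere, thin filaments of polymerised actin carry tropomyosin along their length and are anchored at the Z-disc, where alpha-actinin links them into a lattice. Titin runs from the Z-disc to the M-band, where myomesin ties the thick filaments together. The outflow tract of the early heart has a wall of beating muscle, to which cells are added from the second heart field. The study asked how gene expression is regionalised within this tube, and these genes show how its contractile scaffold compares between the superior and the inferior wall.

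No gene of the scaffold passed the test for a difference between the regions in any fit run. Of the 26 genes bright enough to be tested, 14 had a higher and 12 a lower superior mean, and their median log2 difference was 0.01, against -0.02 over all 22518 tested probe sets. After quantile normalization the split was 10 higher and 16 lower, with a median of -0.08. The Z-disc gene Myoz2 had the largest difference, 0.65 on the log2 scale, followed by the cardiac actin gene Actc1 at 0.33 and the leiomodin gene Lmod2 at 0.32. The largest difference in the other direction was -0.28, for Xirp1.

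The promoters of both striated muscle actin genes are shown, with that of Myoz2, the member with the largest difference. The actin genes had mean differences of opposite sign, neither of them called, and that of Acta1 turned positive without pool 6. The sequences are from RefSeq on GRCm38.p6, 5′ to 3′ on the gene's strand, and run from 250 bases before to 50 bases after the annotated start. Capitals mark a CArG box (bound by serum response factor), a MEF2 site, the letters TATAAA (the core of a TATA box) or an M-CAT element (CATTCC, bound by TEAD factors), searched on both strands.
Actc1 (chr2:114052826-114053125, minus strand): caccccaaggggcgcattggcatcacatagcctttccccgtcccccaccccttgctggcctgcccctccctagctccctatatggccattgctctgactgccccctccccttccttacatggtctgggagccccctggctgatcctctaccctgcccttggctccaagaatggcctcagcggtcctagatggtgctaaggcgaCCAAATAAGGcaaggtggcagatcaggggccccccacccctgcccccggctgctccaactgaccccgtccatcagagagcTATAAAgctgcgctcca
Acta1 (chr8:123894726-123895025, minus strand): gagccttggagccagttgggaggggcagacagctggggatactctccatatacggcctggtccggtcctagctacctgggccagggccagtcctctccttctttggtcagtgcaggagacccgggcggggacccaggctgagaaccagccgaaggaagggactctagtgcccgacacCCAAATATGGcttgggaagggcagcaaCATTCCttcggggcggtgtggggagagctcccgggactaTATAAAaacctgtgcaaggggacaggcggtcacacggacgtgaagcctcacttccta
Myoz2 (chr3:123034938-123035237, minus strand): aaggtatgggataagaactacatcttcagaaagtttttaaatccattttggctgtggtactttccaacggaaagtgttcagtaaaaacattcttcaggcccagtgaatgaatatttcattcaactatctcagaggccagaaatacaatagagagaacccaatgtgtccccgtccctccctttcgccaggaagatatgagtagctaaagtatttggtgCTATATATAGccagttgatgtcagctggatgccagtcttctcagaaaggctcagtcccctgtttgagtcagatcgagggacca
Positions are counted from the annotated start. In Actc1 the CArG box began at -47 and TATAAA at 34, and in Acta1 the CArG box began at -73, the M-CAT element at -46 and TATAAA at -7. The Myoz2 promoter held a MEF2 site at -33 and no match to the other motifs. No match shown overlaps another.

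Promoters of 24 of the 31 genes were searched, with 32 start sites. Any members on 1 chromosome were left out of this search, while the shares over all promoters kept that chromosome. A CArG box lay in 18.8% of the 32 promoters, against 1.63% of all 32851, and these belonged to 5 genes, Actc1, Acta1, Ldb3, Myom1 and Nebl. A MEF2 site lay in 15.6%, against 3.19%, from 4 genes (Ttn, Myoz2, Synpo2l and Xirp2). An M-CAT element lay in 31.2%, against 14.7%, from 9 genes, and TATAAA in 15.6%, against 13.6%, from 5 genes. Start sites of 1 gene can overlap, as for Ldb3, where the same CArG box lay in both windows. These are matches of letters in a short window and describe the sequences only.

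The signals are linear values that the authors scaled so that every array has the same trimmed mean, and a signal is read here against the same probe set on other arrays. Differences were taken on log2(signal + 3.2), which makes differences of dim genes smaller than they are. A probe set entered the test if it was among the brighter 50% by mean log2 value, which lay above a signal of about 15.1, and each gene was represented by its tested probe set with the highest mean. The arrays' median signals lay between 13.9 and 17.6, and 58.4% to 63.1% of probe sets lay above 8.0, the highest signal of bacterial control probe sets, taken here as background. The superior array of pool 6 stood apart, with hybridisation controls at 1.63 times their signal on the median array and a highest signal of 8610. The arrays of pool 1 stood apart as well. Their Gapdh 5′ to 3′ signal ratios were 0.769 and 0.452, against 1.11 to 1.20 on the other arrays, and their 18S ribosomal RNA 3′ signals were 98.0 and 86.4, against 377.8 to 533.0.

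Calls were made at an adjusted p of 0.05 over all tested probe sets, with limma. Without a term for the pool number, 0 of 26 genes and 0 of 59 tested probe sets of the list were called, where the share called among all tested probe sets was 0%. At an unadjusted p of 0.05, 0 genes and 3 probe sets passed, where 3.52% of all probe sets did. With the pool number as a block, called the paired fit below, again 0 genes and 0 probe sets were called, against 0.16% of all probe sets (36), and the smallest adjusted p was 0.127. Here 5 genes and 9 probe sets passed an unadjusted p of 0.05, where 11% of all probe sets did. After quantile normalization the paired fit called 0 list members, against 0.164% of all probe sets. At an unadjusted p of 0.05 it passed 5 genes and 10 probe sets, against 9.56%. For 0 of the 26 genes did all superior values lie above all inferior values (4.65% of all tested probe sets) and for 0 below them (4.56%), so that the regions overlapped for every gene, and did not for 9.21% of all tested probe sets. Within the pools, 6 genes were higher in superior tissue in all 3 (Myoz2, Actc1, Lmod2, Pdlim5, Tpm1 and Nexn), where 15% of all tested probe sets were, and 3 were lower in all 3 (Xirp1, Cmya5 and Tmod1), where 19% were.

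A p that misses the threshold does not show equal expression, so the intervals are given too. In the paired fit, the 95% interval of the difference lay within a 1.5-fold change either way for 24 of 26 genes, where this held for 73.4% of all tested probe sets. The exceptions were Myoz2 (0.37 to 0.93) and Cmya5 (-0.64 to 0.23). Within a 2-fold change lay all 26 genes, against 97.1%. Without the pool term, 24 of 26 lay within a 2-fold change, against 88%, and only 18 of 26 within a 1.5-fold change. Of the 26 genes, 19 lay among the brightest 10% of tested probe sets. These shares therefore set mostly bright genes beside probe sets of every brightness. The paired fit has 2 residual degrees of freedom, so its intervals draw much of their width from the variance of other probe sets.

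**Figure D1:**
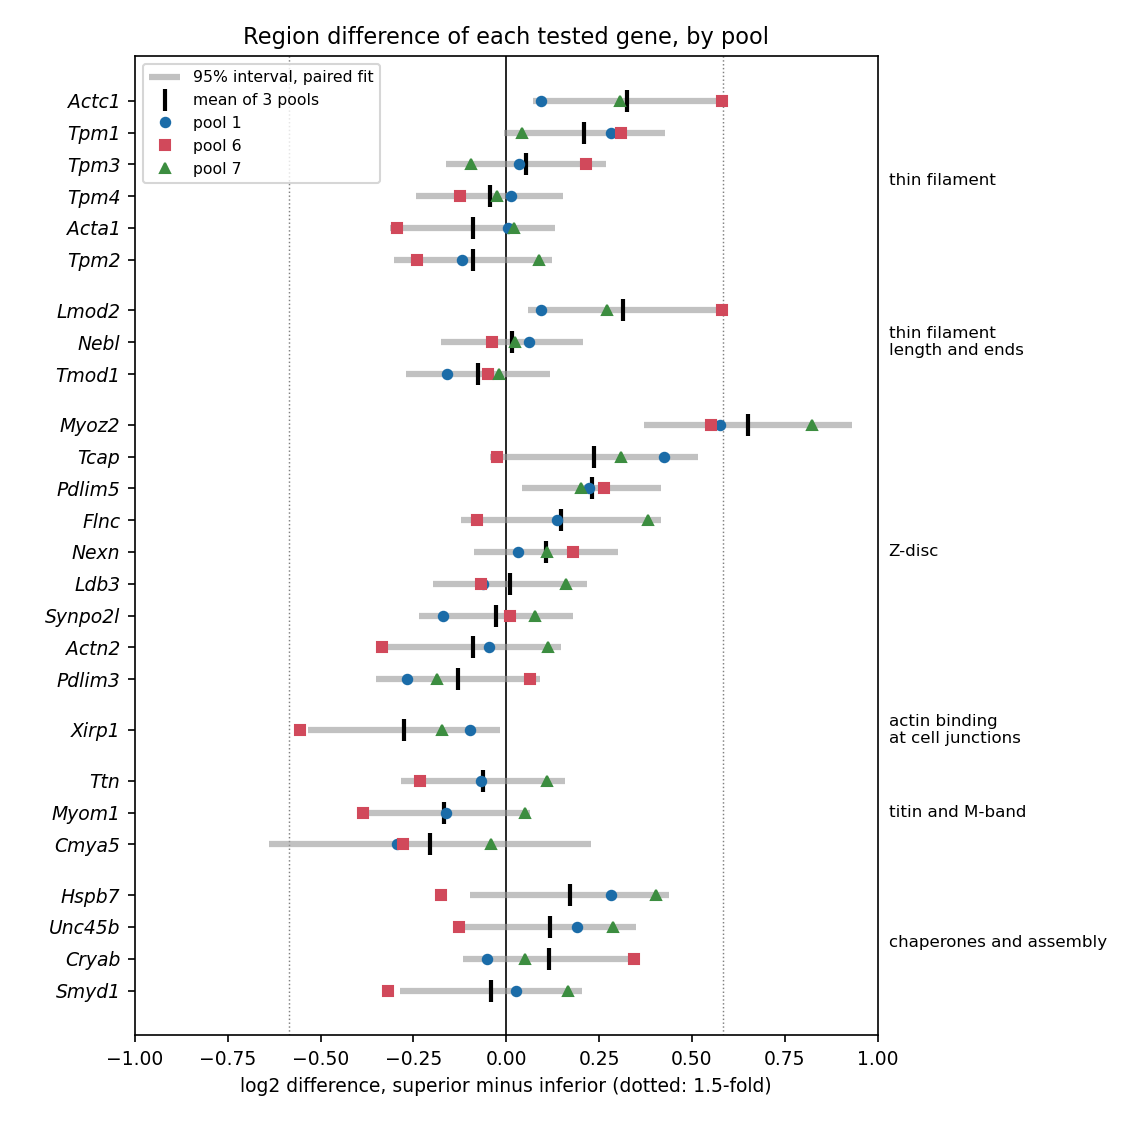
Log2 difference, superior minus inferior, of the 26 tested genes grouped by role (points: pools 1, 6 and 7; black ticks: mean of the 3 pools; grey bars: 95% interval of the paired limma fit; dotted lines: 1.5-fold). Most means lie close to 0 and the pools fall on both sides of it, while Myoz2 lies to the right in all 3 pools, with an interval of 0.37 to 0.93.

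Among the thin filament genes, 3 of 6 had a higher and 3 a lower superior mean, and the median of their log2 differences was 0.0035. Actc1 encodes the actin of heart muscle. Its signal was 5544, 8496 and 6204 in superior pools 1, 6 and 7, and 5200, 5678 and 5019 in inferior pools 1, 6 and 7. It was higher in superior tissue within each pool, most in pool 6, but superior pool 1 lay below inferior pool 6, so the regions overlapped. Superior pools averaged 6748 ± 1549 (SD, n = 3) and inferior pools 5299 ± 340.8 (SD, n = 3), a log2 difference of 0.33 ± 0.11 (SE of the paired fit; paired adjusted p = 0.380). This value depended on pool 6 and on the scaling. It was 0.15 without the superior array of pool 6, which leaves its inferior partner unmatched, and 0.20 without both arrays of pool 6. After quantile normalization it was 0.10, and after cyclic loess 0.15.

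Acta1, which encodes skeletal muscle actin and is also made in the embryonic heart, did not follow Actc1 from pool to pool. Its signal was 2318, 1648 and 2443 in superior and 2311, 2022 and 2410 in inferior pools 1, 6 and 7. Pools 1 and 7 were nearly level, at log2 differences of 0.00 and 0.02, and pool 6 was lower in superior tissue, at -0.29. In that pool, therefore, the cardiac actin gene was higher and the skeletal actin gene lower in the same superior array. This is the array that stood apart in its controls and highest signal. In pool 6 the brightest 10% of tested probe sets had a median difference of 0.15, against -0.03 over all tested probe sets. Of the 26 genes, 16 were lower in superior pool 6, among them Myom1 (-0.39), Actn2 (-0.34) and Ttn (-0.23), and 10 were higher. The part of signal level in this contrast was not tested. The mean difference of Acta1 was -0.09 ± 0.10 (paired adjusted p = 0.776).

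Tropomyosins lie along the actin filament and, with troponin, gate its contact with myosin. Tpm1, the main form of heart muscle, had a signal of 2840, 4331 and 3782 in superior and 2334, 3498 and 3675 in inferior pools 1, 6 and 7 for its brightest probe set. It was higher in superior tissue within each pool, with a log2 difference of 0.21 ± 0.09 (paired adjusted p = 0.466), which shrank to 0.03 after quantile normalization. Tpm2, Tpm3 and Tpm4 had differences of -0.09, 0.05 and -0.04. Tropomyosins are also made outside muscle, and which forms or cells these signals come from was not tested. For Tpm3 quantile normalization turned the sign, to -0.08.

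Leiomodin and tropomodulin act where a thin filament ends, and nebulette, a relative of nebulin, is grouped with them here. Lmod2, the leiomodin of heart muscle that lengthens thin filaments at their pointed ends, had a signal of 509.4, 325.4 and 289.8 in superior and 477.3, 216.4 and 239.7 in inferior pools 1, 6 and 7. It was higher in superior tissue within every pool, while both pool 1 arrays lay above all others, so the regions overlapped. The log2 difference was 0.32 ± 0.11 (paired adjusted p = 0.398), made up of 0.09, 0.58 and 0.27 in the 3 pools. It was 0.33 after quantile normalization, 0.07 without the superior array of pool 1 and 0.67 without the inferior one. Both left-out settings leave the other array of pool 1 unmatched, so they also hold differences between pools. Tmod1, which caps the pointed ends, had a difference of -0.08 ± 0.08 (paired adjusted p = 0.783), and Nebl, which encodes nebulette, 0.02 ± 0.08 (0.966). Nebl took a negative sign, -0.07, after quantile normalization.

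**Figure D2:**
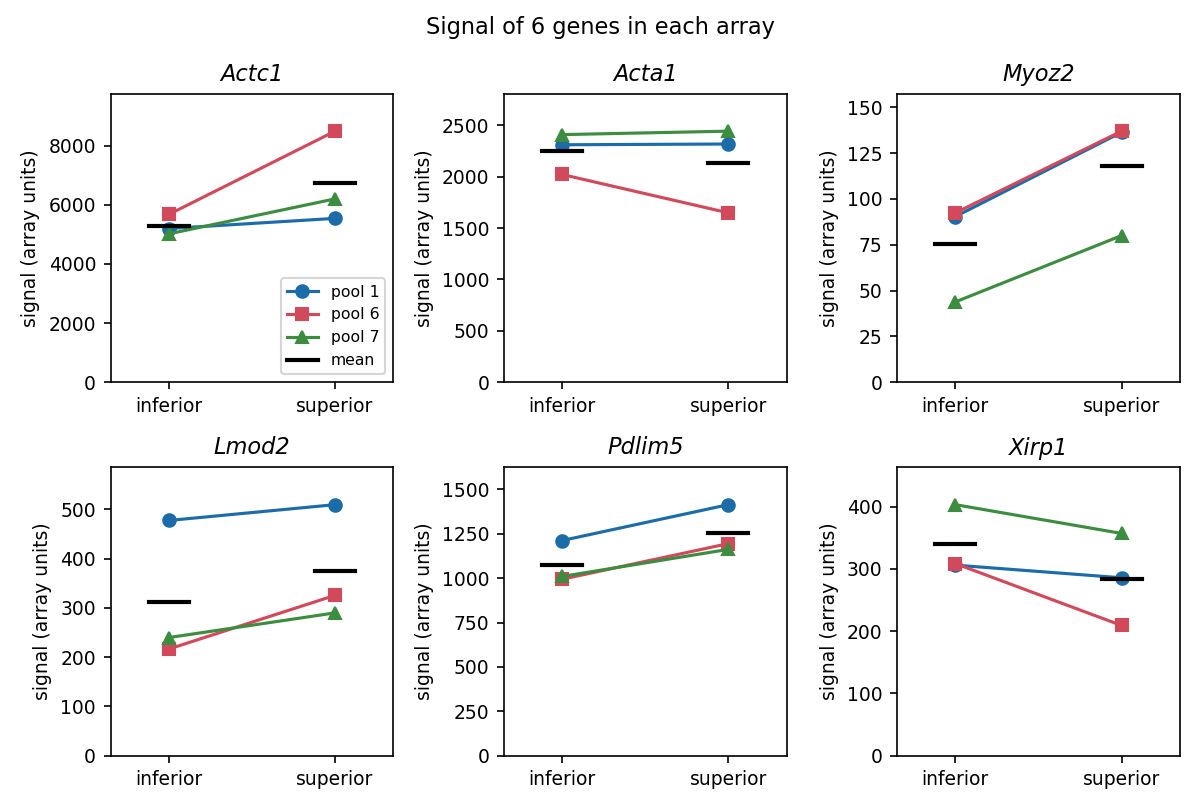
Signal in array units (linear axis from 0) of 6 genes in the inferior and superior arrays of each pool, joined by pool, with black bars for the mean of 3 arrays. Myoz2, Pdlim5, Lmod2 and Actc1 are higher in the superior array of each pool and Xirp1 is lower, while the regions overlap for every gene.

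Of the 9 tested Z-disc genes, 6 had a higher superior mean, and the median of their log2 differences was 0.11 as deposited and 0.04 after quantile normalization. Myoz2 encodes myozenin 2, also called calsarcin 1, which ties calcineurin to alpha-actinin at the Z-disc. Its signal was 136.4, 137.0 and 80.0 in superior and 90.4, 92.4 and 43.8 in inferior pools 1, 6 and 7. Superior tissue was higher in each pool, by 0.58, 0.55 and 0.82 on the log2 scale, but superior pool 7 lay below inferior pools 1 and 6. Superior pools averaged 117.8 ± 32.7 and inferior pools 75.5 ± 27.5 (SD, n = 3 each), with a log2 difference of 0.65 ± 0.12, or 1.57-fold on that scale. It was not called (paired adjusted p = 0.127, 0.105 after quantile normalization, and between 0.0605 and 0.744 over the other paired settings run). Its log2 value was 0.31 without the inferior array of pool 7, which leaves the superior array of that pool unmatched.

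Markers of other tissue moved with region beside this difference. Of the chamber muscle markers, 8 of 10 tested genes had a higher mean in superior pools (median 0.47), and 10 of 10 after quantile normalization (median 0.30). Their summed signals were 14177 to 16220 in superior and 10686 to 12377 in inferior pools. Most of each sum came from Myl2 and Myl4, whose differences fell from 0.48 to 0.23 and from 0.28 to 0.03 after quantile normalization. Irx4 was the 1 of them called in the paired fit, where 0.16% of all probe sets were, and 0 were called in the unpaired fit. Gja5 was not above background on any array. Of the epicardial markers, all 8 tested genes had a higher mean in superior pools (median 1.06), with 4 called in the paired and 0 in the unpaired fit and summed signals of 1802 to 2465 against 1407 to 1455. A listed marker, Msln, was not above background on any array. The paired fit without trend and robust variance called 0 of all probe sets, so these calls were lost there. The part of either tissue in the Myoz2 difference was not tested.

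Pdlim5, a PDZ and LIM protein that binds alpha-actinin, was higher in superior tissue in each pool for its brightest probe set. The signal was 1415, 1195 and 1163 in superior and 1212, 994.3 and 1010 in inferior pools 1, 6 and 7. The pools were nearly alike in their log2 differences, at 0.22, 0.26 and 0.20 (mean 0.23 ± 0.08, paired adjusted p = 0.398). Tcap, which encodes telethonin, the cap of titin at the Z-disc, had a difference of 0.24 ± 0.12 (paired adjusted p = 0.517). The remaining Z-disc genes lay between -0.13 and 0.15. Among them, Actn2, the sarcomeric alpha-actinin that defines the Z-disc, had signals of 1774, 1514 and 1774 in superior and 1834, 1912 and 1641 in inferior pools, and its log2 differences of -0.05, -0.34 and 0.11 changed sign between pools. Nexn, an actin-binding protein, stood at 0.11, Flnc (filamin C) at 0.15, Ldb3 (a PDZ and LIM protein also called ZASP) at 0.01, Synpo2l at -0.03 and Pdlim3 at -0.13. Ldb3 took a negative sign, -0.07, after quantile normalization, and Synpo2l a positive one, 0.01, after 75th percentile scaling. The probe set used for Flnc is of the _x_at class and those used for Smyd1 and Synpo2l are of the _s_at class, which may also bind other transcripts.

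Xirp1 encodes Xin, an actin-binding protein of the junctions between heart muscle cells. Its signal was 285.6, 209.0 and 356.8 in superior and 305.9, 308.4 and 403.0 in inferior pools 1, 6 and 7. Superior tissue was lower in each pool, by log2 differences of -0.10, -0.55 and -0.17, and superior pool 7 lay above inferior pools 1 and 6. The mean difference was -0.28 ± 0.11 (paired adjusted p = 0.434), and -0.07 without the superior array of pool 6, which leaves its inferior partner unmatched.

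Titin and the M-band genes had a lower superior mean in 3 of 3 cases, and 0 were called in either limma fit. Ttn, which encodes the spring that spans from Z-disc to M-band, had a signal of 2809, 2164 and 3019 in superior and 2944, 2541 and 2800 in inferior pools 1, 6 and 7 for its brightest probe set. The difference was -0.06 ± 0.10 (paired adjusted p = 0.851) and ran the other way in pool 7. Myom1 encodes myomesin 1, which crosslinks thick filaments, and its signal was 925.9, 780.3 and 1279 in superior and 1037, 1021 and 1236 in inferior pools. It was lower in superior pools 1 and 6 and slightly higher in superior pool 7, with a difference of -0.17 ± 0.10 (paired adjusted p = 0.586). Cmya5, which encodes myospryn, was dim, at 17.6, 15.6 and 21.6 in superior and 22.3, 19.6 and 22.3 in inferior pools, with a difference of -0.20 ± 0.19 (paired adjusted p = 0.732).

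Chaperones fold myosin and protect filaments under load. Hspb7, a small heat shock protein of heart muscle, had a difference of 0.17 ± 0.12 (paired adjusted p = 0.637), Unc45b, a myosin chaperone, 0.12 ± 0.10 (0.714), and Cryab, or alpha-B crystallin, 0.11 ± 0.10 (0.718). Smyd1, a methyltransferase needed to build sarcomeres, had -0.04 ± 0.11 (0.924). None of these was higher or lower in the same direction in all 3 pools. Cryab was at 0.00 after quantile normalization, on the negative side.

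In the list, 4 genes were too dim to be tested. The single probe set of Neb, which encodes the long thin filament ruler of skeletal muscle, had signals of 0.4 to 2.8 over the 6 arrays, and that of Myot, which encodes myotilin, 0.7 to 6.6. Both lay below the background of 8.0 on every array. All 4 probe sets of Myom2, the M-band protein of faster and more mature muscle, lay below background but for 1 value of 9.9 in superior pool 6. Mypn, or myopalladin, had 1 probe set above background in both pool 1 arrays alone (10.2 and 8.8). Their relatives Nebl and Myom1 were well above background on all arrays, with their brightest probe sets at 1317 to 1772 and at 780.3 to 1279.

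Quantile normalization forces the same distribution on every array. Of the 26 genes, 19 had their probe set among the brightest 10% of tested probe sets, and that 10% had a median difference of 0.09 as deposited (0.08, 0.15 and 0.08 in pools 1, 6 and 7), with 76.8% of it higher in superior pools. Across all tested probe sets 44.9% were higher. The list's own median of 0.01 was thus below that of the brightest 10% and above that of all probe sets. Quantile normalization lowered the list's median to -0.08 and turned the sign of 4 genes (Cryab, Ldb3, Nebl and Tpm3), while dimmer members such as Myoz2 and Lmod2 moved little. By pool, the median over the 26 genes was 0.02, -0.06 and 0.10 in pools 1, 6 and 7, with 15, 10 and 20 genes higher in superior tissue. The median over this list had no settled sign across these settings and pools.

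**Figure D3:**
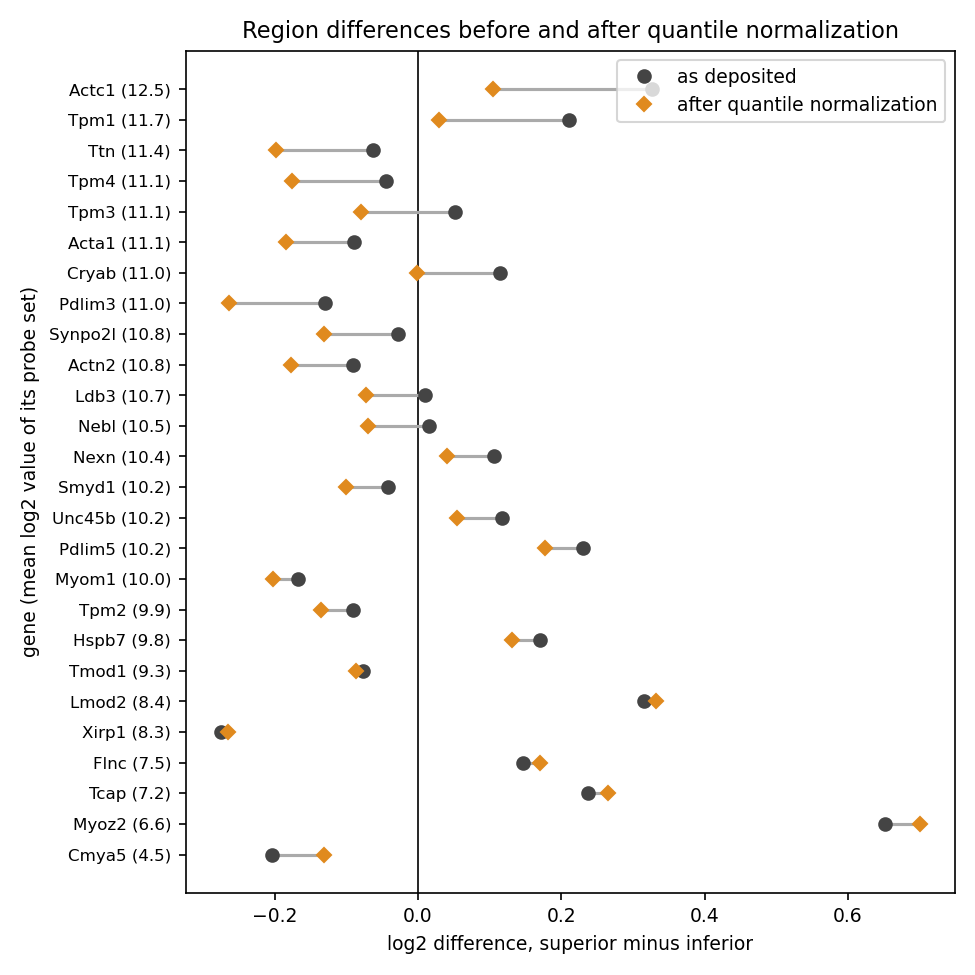
Log2 difference, superior minus inferior, of each tested gene as deposited (dark circles) and after quantile normalization (orange diamonds), ordered by mean log2 value, which is given in parentheses. The bright genes at the top shift to the left, Actc1 from 0.33 to 0.10, while Lmod2 and Xirp1 hardly move.

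Probe sets of the same gene did not always run the same way. When each gene was given the mean of all its tested probe sets, 11 of 26 genes were higher, the median was -0.06, and Pdlim5 (-0.07), Nebl (-0.16) and Tpm3 (-0.03) turned from positive to negative. Of the 12 genes with more than 1 tested probe set, 9 had both signs among them (Flnc, Ldb3, Nebl, Pdlim5, Smyd1, Tpm1, Tpm2, Tpm3 and Ttn). Pdlim5 had the widest spread. Its probe set 1421413_a_at gave 371.6, 426.7 and 376.4 in superior against 256.3, 330.7 and 321.2 in inferior pools 1, 6 and 7, so that the regions did not overlap (log2 0.37 ± 0.10, paired adjusted p = 0.269). Its probe set 1422861_s_at ran in the opposite direction without overlap, at 53.0, 52.4 and 49.9 against 89.1, 53.8 and 88.8 (log2 -0.51 ± 0.17, paired adjusted p = 0.379). Pool 6 hardly differed in the latter, whose class (_s_at) may also bind other transcripts. Pdlim5 is spliced into several forms, and which of them each probe set reads is not stated in the files.

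The tropomyosin gene Tpm2 also had a single probe set apart from its others. For 1449577_x_at, of a class that may also bind other transcripts, the signal was 98.6, 85.5 and 80.1 in superior and 134.7, 106.6 and 152.2 in inferior pools 1, 6 and 7, without overlap (log2 -0.55 ± 0.14, paired adjusted p = 0.263). The other 3 Tpm2 probe sets lay at -0.09, 0.01 and -0.02. For Tpm1, 3 probe sets lay between 0.17 and 0.29 and the remaining one at -0.14. The 5 tested Ttn probe sets lay between -0.33 and 0.01, the lowest being 1444083_at (-0.33 ± 0.11, paired adjusted p = 0.371), which was lower in superior tissue in each pool. The 3 Nebl probe sets lay at 0.02, -0.14 and -0.35, those of Ldb3 at 0.01, 0.19 and -0.16, and both of Flnc at 0.15 and -0.10, from the brightest to the dimmest. The tested probe sets of Smyd1 lay between -0.27 and 0.25 and those of Tpm3 between -0.15 and 0.05. None of the adjusted p-values of these genes' probe sets passed 0.05. The 3 probe sets without overlap, 1 higher and 2 lower in superior pools, were singled out after their values were seen. They were 3 of 59 tested probe sets of the list, where 9.21% of all tested probe sets had no overlap (4.65% higher and 4.56% lower). In all, 25 tested probe sets of the list had a higher and 34 a lower mean in superior pools.

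**Figure D4:**
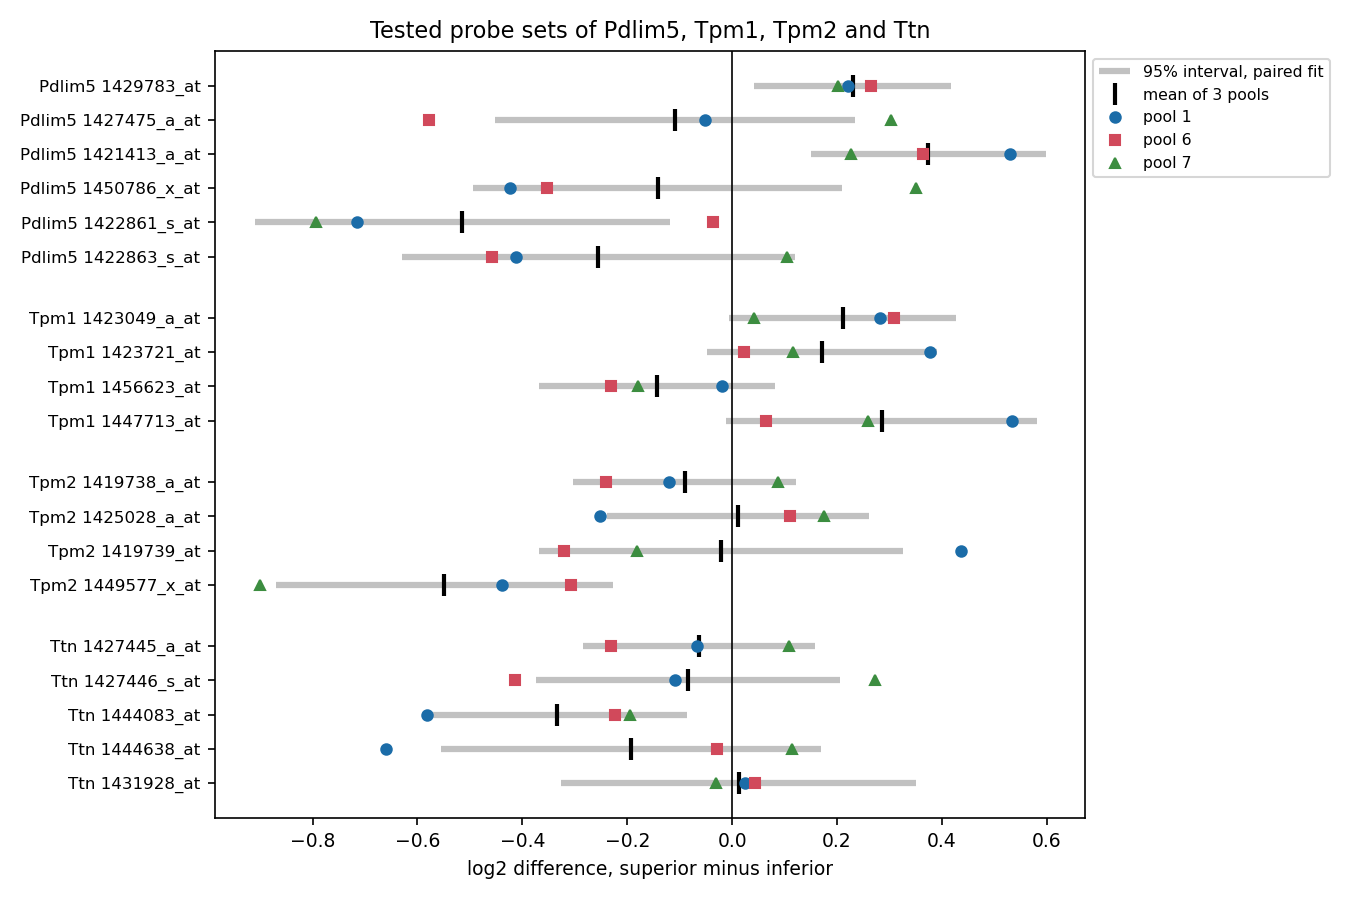
Log2 difference, superior minus inferior, of each tested probe set of Pdlim5, Tpm1, Tpm2 and Ttn (points: pools; black ticks: mean of 3 pools; grey bars: 95% interval of the paired limma fit). The Pdlim5 probe sets lie on both sides of 0, from -0.51 to 0.37, and 1 Tpm2 probe set lies at -0.55 while the others are near 0.

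The range between the 3 pool means exceeded the region difference for 23 of 26 genes, with a median range of 0.37 against a median absolute region difference of 0.12. Over all tested probe sets this held for 83.3%, with medians of 0.34 and 0.12. A range between 3 means tends to exceed a difference between region means even without any effect, as each pool mean rests on fewer arrays. The comparison therefore cannot show that pools differed more than regions. Some probe sets were far dimmer in both pool 1 arrays. The Hspb7 probe set 1421289_at had signals of 29.8 and 20.3 in superior and inferior pool 1, against 189.0 to 237.5 in the other 4 arrays, 7.75-fold lower in pool 1. The brightest Hspb7 probe set, 1434927_at, showed no such gap, at 1122 and 921.3 in pool 1 against 671.9 to 889.5.

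The same held for Tpm3 and Smyd1. The Tpm3 probe set 1427567_a_at had 91.1 and 73.7 in pool 1 against 258.3 to 362.0 (3.75-fold lower), while its brightest had 2075 and 2025 against 2147 to 2578. The Smyd1 probe set 1450203_at had 211.6 and 159.6 against 445.7 to 820.9 (3.56-fold lower). In all, 5 of the 59 tested probe sets, of 3 genes, had a pool 1 mean over 2-fold below both other pools, against 3.33% of all tested probe sets. Synpo2l had the 1 probe set that was over 2-fold above them, 1447658_x_at (also of a class that may bind other transcripts), with 650.4 and 968.0 in pool 1 against 163.8 to 290.6, and 0.147% of all tested probe sets did so. None of the probe sets that represent the 26 genes lay in either class. The lower Gapdh 5′ to 3′ ratio of pool 1 moved with this pattern, and its part in it was not tested. Without pool 1, the list had 14 of 26 genes higher, a median of 0.04 and 0 calls.

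**Figure D5:**
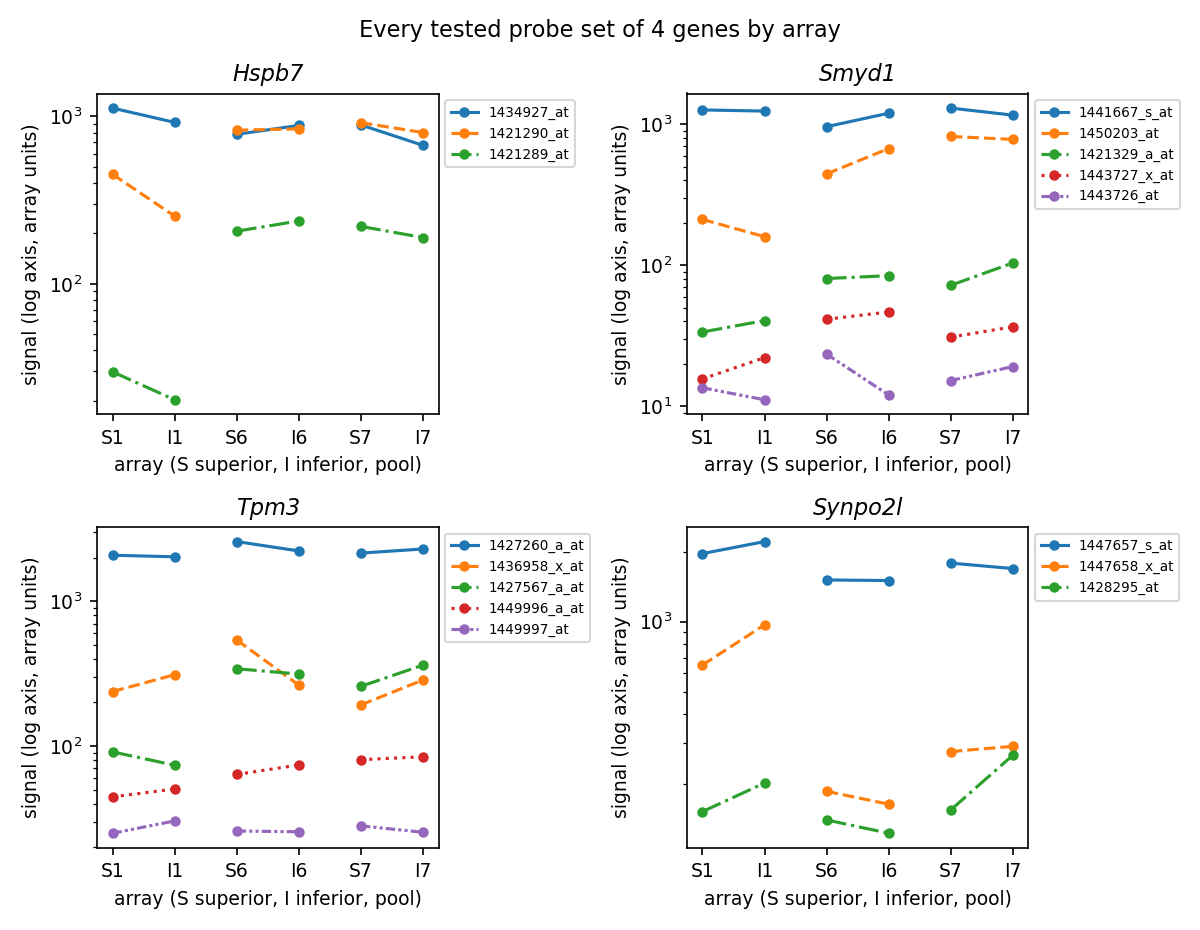
Signal (log axis, array units) of every tested probe set of Hspb7, Smyd1, Tpm3 and Synpo2l in the 6 arrays (S superior, I inferior), with both arrays of a pool joined. The brightest probe set of each gene lies between 671.9 and 2578 on all arrays, while 1421289_at of Hspb7, 1450203_at of Smyd1 and 1427567_a_at of Tpm3 are low in both pool 1 arrays.

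Other genes of the same structures were listed separately. A wider list of 52 Z-disc, M-band, capping and chaperone genes had 43 tested members, 23 higher and 20 lower in superior pools (median 0.03). Of these, 0 were called in either fit (0.16% of all probe sets in the paired fit). At an unadjusted p of 0.05, 9 passed in the paired fit and 3 in the unpaired fit, where 11% and 3.52% of all probe sets did. The largest difference in this list was that of Csrp3, a muscle LIM protein of the Z-disc. Its superior pools averaged 3415 ± 409.5 and its inferior pools 2320 ± 483.7 (SD, n = 3 each). The log2 difference was 0.57 ± 0.10, with a paired adjusted p of 0.106 in limma. Unc45a, a general myosin chaperone, had -0.49 (0.287), the small heat shock gene Hspb8 0.47 (0.363), and Synpo2, a Z-disc protein that binds actin, -0.46 (0.192). The non-sarcomeric and smooth muscle actins Actb, Actg1, Acta2 and Actg2 had means 0.19 to 0.59 higher on the log2 scale, with 0 of 4 called by limma in either fit. At an unadjusted p of 0.05, 1 of them passed in the paired and 0 in the unpaired fit, against 11% and 3.52% of all probe sets. After quantile normalization only Actg2 of these 4 kept a positive difference.

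The myosins, troponins and myosin-binding protein C genes, the thick filament and regulatory parts of the same sarcomere, had 18 of 20 tested members higher (median 0.22), against 12 of 20 and a median of 0.05 after quantile normalization. Called in the paired fit were Myl1 (higher) and Tnnt1 (lower), where 0.16% of all probe sets were called. In the unpaired fit 0 were called, and in the paired fit without trend and robust variance 0 of all probe sets. Of 18 regulators of muscle genes, all tested, 14 had a lower superior mean (median -0.07) and 0 were called in either fit. At an unadjusted p of 0.05, 2 of them passed in the paired and 0 in the unpaired fit, against 11% and 3.52% of all probe sets. Myocd, which encodes myocardin, the cofactor of serum response factor at CArG boxes, had a difference of -0.27 (paired adjusted p = 0.386) and Nkx2-5 -0.31 (0.313). Whether these groups differ from the scaffold genes was not tested.

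The muscle identity of the tissue was checked against markers. The cardiac genes Tnnt2 and Nkx2-5 had mean signals of 4698 and 408.0 in superior and of 4093 and 505.5 in inferior pools. Of 9 skeletal muscle markers, 1 was tested, Tcf21, which is also among the epicardial markers called in the paired fit. Myf6, Mymk, Msc and Chrna1 were not above background on any array. The others, Myod1, Myf5, Myog and Pax7, were too dim to be tested but lay above background on at least 1 array. Of 7 tested smooth muscle markers, 6 had a higher superior mean, but 2 of 7 after quantile normalization, with 0 called in either fit. At an unadjusted p of 0.05, 1 of them passed in the paired and 0 in the unpaired fit, against 11% and 3.52% of all probe sets. The summed signal of the smooth muscle list was 15296 to 17690 in superior and 14242 to 15272 in inferior pools. Higher means in superior pools were found for 7 of 9 endothelial markers (median 0.03), 3 of 10 markers of neural crest and mesenchyme (median -0.22) and 4 of 6 blood markers (median 0.13). In limma 0 of these were called in either fit. At an unadjusted p of 0.05, 1, 5 and 1 passed in the paired fit (11% of all probe sets) and 0, 1 and 0 in the unpaired fit (3.52%).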

How the data were processed

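RNA from 3 superior and 3 inferior outflow tract pools was measured on 6 arrays. The deposited values are linear intensity signals made by the authors with MAS5, per the submitters' processing notes. No source used here gives its version. Of 45101 probe sets, 64 controls were left out, and genes were named from the platform annotation (34945 probe sets named 1 gene, 932 several, 9160 none). Signals became log2(signal + 3.2), 3.2 being the 25th percentile. Regions were compared with limma 3.58.1 in R 4.3.3 (lmFit, eBayes with trend and robust variance) and Benjamini-Hochberg adjustment over 22518 probe sets above the median, without and with the pool number as a block. Standard errors are those of the paired fit. The script was tested on simulated data. Precision is limited by the number of arrays.

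The pool numbers come from the sample titles. Deviations from region means correlated at 0.79, 0.43 and 0.51 between same-numbered arrays of pools 1, 6 and 7, all above 0.1, and the numbers were taken as pairs. Unlike numbers of pools 6 and 7 gave 0.18 and 0.20, also above 0.1. That threshold could therefore not tell the pairing of pools 6 and 7 from its swap.

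The member genes, the other lists and the tests were chosen with earlier results of these data known. Members described array by array are those with the 3 largest differences in each direction, the brightest ones and those whose probe sets differ in sign (by range for the smaller of these), and of other lists the genes called and up to 4 with the largest differences, beside Tnnt2, Nkx2-5 and Myocd, which were named for their roles. Alternatives covered scaling, offset, filter, variance model and left-out arrays.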

Additional observations from a re-analysis of the deposited data

How the results depend on the processing

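Under all 23 alternatives (20 planned, 3 added after seeing the data: the replicate block without the filter, the replicate block without trend and robust variance, and both arrays of pool 1 left out), limma called 0 member genes. Over all probe sets the unpaired fit called 0, the replicate block 36 (37 after quantile normalization, 1 without the filter on dim probe sets and 0 without trend and robust variance), and 0 to 231 were called with arrays or pools left out. The paired fits changed no member's call. The members' median log2 difference was -0.076 after quantile normalization, with or without the replicate block, -0.078 after cyclic loess, and -0.028 to 0.092 with arrays or pools left out (lowest without inferior replicate 6, highest without superior replicate 6). Of 596 single-gene values under the alternatives, 549 kept their direction and 47 turned sign, in 15 genes, none of them called. The other 11 genes, Myoz2, Actc1, Lmod2 and Xirp1 among them, kept their direction in every alternative that tested them. After quantile normalization, also with the replicate block, Cryab turned to -0.0021, Ldb3 to -0.073, Nebl to -0.070 and Tpm3 to -0.079. After cyclic loess Ldb3 turned to -0.084, Nebl to -0.071 and Tpm3 to -0.058, and after 75th percentile scaling Synpo2l to 0.011. With the mean of all tested probe sets of a gene, Nebl turned to -0.16, Pdlim5 to -0.070 and Tpm3 to -0.025. With arrays or pools left out, values ranged from -0.20 to 0.087 for Acta1, from -0.19 to 0.032 for Actn2, from -0.022 to 0.23 for Cryab, from -0.13 to 0.19 for Ldb3, from -0.11 to 0.11 for Nebl, from -0.0044 to 0.21 for Nexn, from -0.32 to 0.045 for Pdlim3, from -0.15 to 0.097 for Smyd1, from -0.15 to 0.13 for Synpo2l, from -0.20 to 0.076 for Tpm2, from -0.044 to 0.13 for Tpm3, from -0.16 to 0.063 for Tpm4, from -0.16 to 0.079 for Ttn and from -0.0030 to 0.29 for Unc45b. Myoz2 and Cmya5 were not tested among the top 25% of probe sets. Where 1 array was left out, its pool partner stayed in the fit unmatched, so such a value also holds differences between pools. The cause of these changes was not tested. Cmya5 lies close to background, which limits its precision.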
